A study of Mus musculus with 18 samples.

Results

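The interferon response was described through 9 genes: Stat2, Irf1, Irf7, Irf9, Ifit1, Ifit3, Isg15, Usp18 and Bst2. A gene was measured where the array's annotation named it alone for a probe set, and it was represented by its probe set of highest mean. Of these 9 genes, 8 had such a probe set, among 18193 genes in all. Stat2 had 2, and the other measured genes had 1 each. The only probe set for Isg15 was annotated with several genes, so Isg15 has no value here. Probe sets whose mean over all arrays lay in the lowest 30% (under a log2 mean of 5.255) were not tested. By that filter 5 of the 9 genes were tested (Stat2, Irf1, Irf7, Irf9 and Bst2), among 14292 genes. Ifit1 (mean 4.40), Usp18 (4.77) and Ifit3 (5.17) fell below it. Nearest above it were Bst2 (5.98) and Irf7 (6.02).

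RNA was measured in interneurons of the caudal ganglionic eminence (CGE), sorted for GFP from dissociated mouse brain. Control mice carried GAD65-GFP, and Htr3a-KO mice carried GAD65-GFP and lacked Htr3a, which encodes a subunit of the serotonin-gated cation channel. Both genotypes were taken at E14.5 (an embryonic age), while the cells migrate tangentially, at E18.5, while they enter the cortical plate, and on postnatal day 2 (P2), while they settle in the cortex. Each of the 6 groups had 3 arrays from 3 litters, and the RNA of an array came from a pool of 4 or more brains, so no value belongs to a single animal. Every group carried the GFP transgene, and no mice without it were analysed here.

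Interferons bind receptors at the cell surface, and receptor-bound Janus kinases then phosphorylate STAT proteins. STAT2 and IRF9 join a further STAT protein in a complex that binds the interferon-stimulated response element (ISRE) of target genes, while interferon gamma acts mainly through STAT dimers on the gamma-activated site. In the brain, interferon-induced transcripts are best known from microglia, astrocytes and endothelial cells that meet a virus or interferon, and neurons can respond too.

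The sequences shown here are the parts of the members' promoters that hold these elements, since they tell which members carry them. The 250 bases before the annotated start of each gene were searched on both strands for the ISRE core (GAAA, then 2 bases of any kind, then GAAA) and for the gamma-activated site TTCNNNGAA (promoters from RefSeq, build GRCm38.p6). An entry was matched for 8 of the 9 members, all but Usp18, with 10 entries in all, since Irf1 and Irf9 had 2 starts each. The ISRE core was found in 5 members (Stat2, Ifit1, Ifit3, Isg15 and Bst2) and in 2.98% of all 32851 promoters. The gamma-activated site was found in 2 members (Irf1 and Bst2) and in 7.02% of all promoters. Irf7 and Irf9 held neither string in these windows. The matches were read from letters alone, and binding was not measured. Each line runs 5′ to 3′ on the gene's strand with the match in capitals, and a match that starts with TTTC is the ISRE core read on the opposite strand. Irf1 and Ifit1 are given with all 250 bases, because the results turn on them most, at chr11:53769764-53770013 on the plus strand and chr19:34640639-34640888 on the plus strand. The others are given as windows around a match, for Stat2 at chr10:128270266-128270295 (plus), for Ifit3 at chr19:34583363-34583392 and chr19:34583397-34583426 (both plus), for Isg15 at chr4:156200871-156200900 (minus) and for Bst2 at chr8:71537583-71537612 (minus).
Irf1: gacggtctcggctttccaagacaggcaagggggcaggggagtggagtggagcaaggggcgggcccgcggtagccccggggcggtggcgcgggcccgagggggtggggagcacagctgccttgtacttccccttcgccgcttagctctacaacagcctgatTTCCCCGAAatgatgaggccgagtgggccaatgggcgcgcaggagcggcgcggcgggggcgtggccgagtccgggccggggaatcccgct
Ifit1: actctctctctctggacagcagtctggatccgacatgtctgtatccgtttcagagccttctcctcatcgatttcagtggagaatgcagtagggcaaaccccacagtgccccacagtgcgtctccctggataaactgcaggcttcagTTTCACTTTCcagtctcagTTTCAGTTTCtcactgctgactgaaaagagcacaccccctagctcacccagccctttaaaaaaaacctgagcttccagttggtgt
Stat2: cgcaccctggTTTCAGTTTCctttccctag
Ifit3, first match: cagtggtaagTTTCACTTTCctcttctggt
Ifit3, next match: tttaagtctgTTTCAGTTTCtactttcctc
Isg15: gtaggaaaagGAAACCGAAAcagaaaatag
Bst2: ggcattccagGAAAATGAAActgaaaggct
The Irf1 match lies 82 bases before the start shown, and the window of the other Irf1 start, chr11:53770223-53770472, held neither string. Ifit1 held 2 matches, 95 and 76 bases before the start, and Ifit3 held 2, 147 and 113 bases before it. Isg15 held 3 overlapping matches, of which the line shows the middle one. Bst2 held 2 overlapping matches, and its gamma-activated site, TTCCAGGAA, overlaps the first of them.

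Array medians lay between 6.35 and 6.46 log2 units. Htr3a, the targeted gene, averaged 8.04 in control and 7.30 in Htr3a-KO arrays at E14.5. Its means were 10.34 against 6.83 at E18.5, with 8.79 against 6.84 at P2. The Htr3a difference did not pass at E14.5 (limma adjusted p = 0.708), while it passed at E18.5 (7.66e-06) and at P2 (0.0109). Gad1, the GABA-synthesising enzyme of interneurons, lay between 10.88 and 12.34 on all arrays. Neurod6, a marker of excitatory cortical neurons, lay between 8.91 and 12.38, so RNA of excitatory neurons was present in these sorts. In RNA from many cells, fewer cells of a type and less RNA per cell cannot be told apart.

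Among the 8 measured genes, Irf1 and Ifit1 were the ones whose 6 group means spanned more than 1 log2 unit (1.14 and 1.25). The span was 0.52 for Irf9, 0.49 for Stat2 and Usp18, 0.34 for Bst2, 0.28 for Ifit3 and 0.17 for Irf7. Irf1 rose from E18.5 to P2 in both genotypes, and no member passed the test between Htr3a-KO and control at any age.

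**Figure D1:**
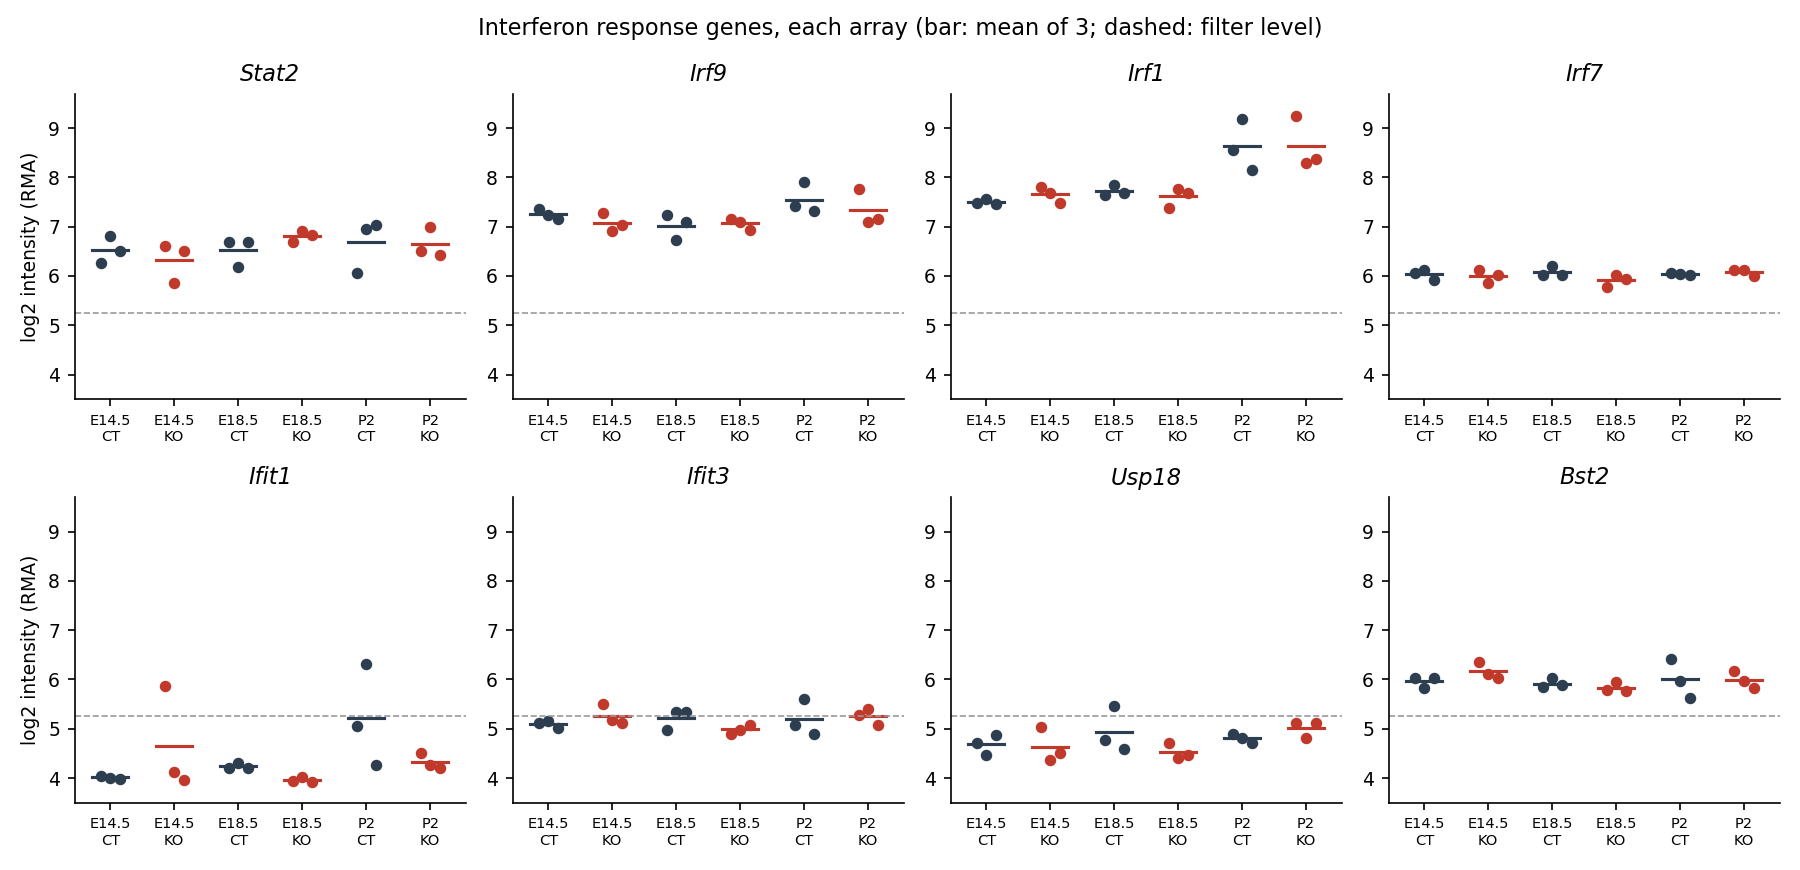
Log2 value of each of the 8 measured genes (vertical axis) on each array (points), by age and genotype (horizontal axis), with a bar at each group's mean over 3 arrays and a dashed line at the filter, 5.255. Irf1 is higher on all 6 arrays at P2 than on any earlier array, and Ifit1 is near 4 on most arrays with 3 arrays above 5.

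Irf1, a transcription factor that interferon gamma induces and that itself activates interferon-stimulated genes, was the member with the clearest change with age. At E14.5 its log2 values were 7.47, 7.56 and 7.45 in controls and 7.81, 7.69 and 7.48 in Htr3a-KO. At E18.5 they were 7.65, 7.84 and 7.68 in controls and 7.38, 7.77 and 7.69 in Htr3a-KO. At P2 they were 8.55, 9.19 and 8.15 in controls and 9.24, 8.29 and 8.38 in Htr3a-KO. All 6 arrays at P2 were thus higher than all 12 earlier arrays, and within each genotype 1 P2 array stood above the other 2. In order of group mean, E14.5 control (7.49 ± 0.059, SD, n = 3), E18.5 Htr3a-KO (7.61 ± 0.21), E14.5 Htr3a-KO (7.66 ± 0.17) and E18.5 control (7.72 ± 0.10) came first. P2 control (8.63 ± 0.53) and P2 Htr3a-KO (8.64 ± 0.52) came last. Neighbours in this order overlapped between arrays, except at the step from E18.5 control to P2 control.

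From E18.5 to P2, Irf1 rose 1.87-fold in controls (log2 difference 0.91, SE 0.24, 95% interval 0.39 to 1.42, limma adjusted p = 0.016). In Htr3a-KO it rose 2.03-fold (1.02, SE 0.24, interval 0.51 to 1.54, adjusted p = 0.00635). The rise differed between genotypes by 0.12 (SE 0.34, interval -0.61 to 0.85, adjusted p = 0.955). Irf1 was the 1 called member of 5 tested at this step, in controls and in Htr3a-KO alike. Over all genes, 19.7% were called in controls (9.96% higher, 9.75% lower) and 28.5% in Htr3a-KO (13.5% higher, 15% lower), so 1 of 5 is near the background share. At an unadjusted p under 0.05 the count was 2 of 5 in controls (Irf1 and Irf9) and 1 of 5 in Htr3a-KO, against 33% and 40.9% of all genes. The call in controls was lost without P2 control array 2 (difference 0.63, adjusted p = 0.0842), without E18.5 control array 1 (0.87, 0.0551) and with only the 6 arrays compared (0.91, 0.0541). The call in Htr3a-KO held under each alternative tried, with differences of 0.72 to 1.20.

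Beside this rise, markers of astrocytes and of oligodendrocytes rose as well. Of the astrocyte list, 7 of 8 genes were tested and 6 of 7 rose from E18.5 to P2 in each genotype. The log2 of their summed intensity was 10.18 to 11.53 in E18.5 control and 13.73 to 14.54 in P2 control arrays. It was 11.73 to 12.06 in E18.5 Htr3a-KO and 14.21 to 14.77 in P2 Htr3a-KO arrays. Aqp4, the water channel that defines astrocytes, was 3.60, 4.17 and 5.91 at E18.5, then 9.78, 11.11 and 11.02 at P2 in controls. Its control means at E14.5 and E18.5 (3.72 and 4.56) lay under the filter level. The P2 array with the highest Irf1 in each genotype (control 2 and Htr3a-KO 1) was also the highest of its group in the astrocyte list. The same arrays were the highest of their groups in the oligodendrocyte list, so this match is not particular to astrocyte markers. Of the oligodendrocyte list, 7 of 8 genes were tested, and 6 of 7 rose in controls and 4 of 7 in Htr3a-KO. The log2 of its summed intensity went from between 12.36 and 13.42 to between 14.20 and 14.39 in controls, and from between 13.46 and 13.79 to between 14.34 and 14.82 in Htr3a-KO. The endothelial and meningeal lists were also higher on every P2 array than on any earlier array. Their lowest P2 values were 12.52 and 11.72, against earlier values of up to 12.37 and 11.65. Over all genes at this step, 9.96% rose and 9.75% fell in controls, and 13.5% rose and 15% fell in Htr3a-KO. At the same step 6 of 10 excitatory markers fell in controls and 8 of 10 in Htr3a-KO. Of the immediate early and stress response genes, Zfp36, Egr1 and Fos were looked at after their values were seen. Zfp36 rose by 2.63 in controls (limma adjusted p = 1.74e-05) and by 1.93 in Htr3a-KO (0.000169). Egr1 rose by 0.54 in controls (0.0455) and did not pass in Htr3a-KO (0.162). Fos passed in neither (0.35 and 0.0879). The part of these shifts in the Irf1 rise was not tested.

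**Figure D2:**
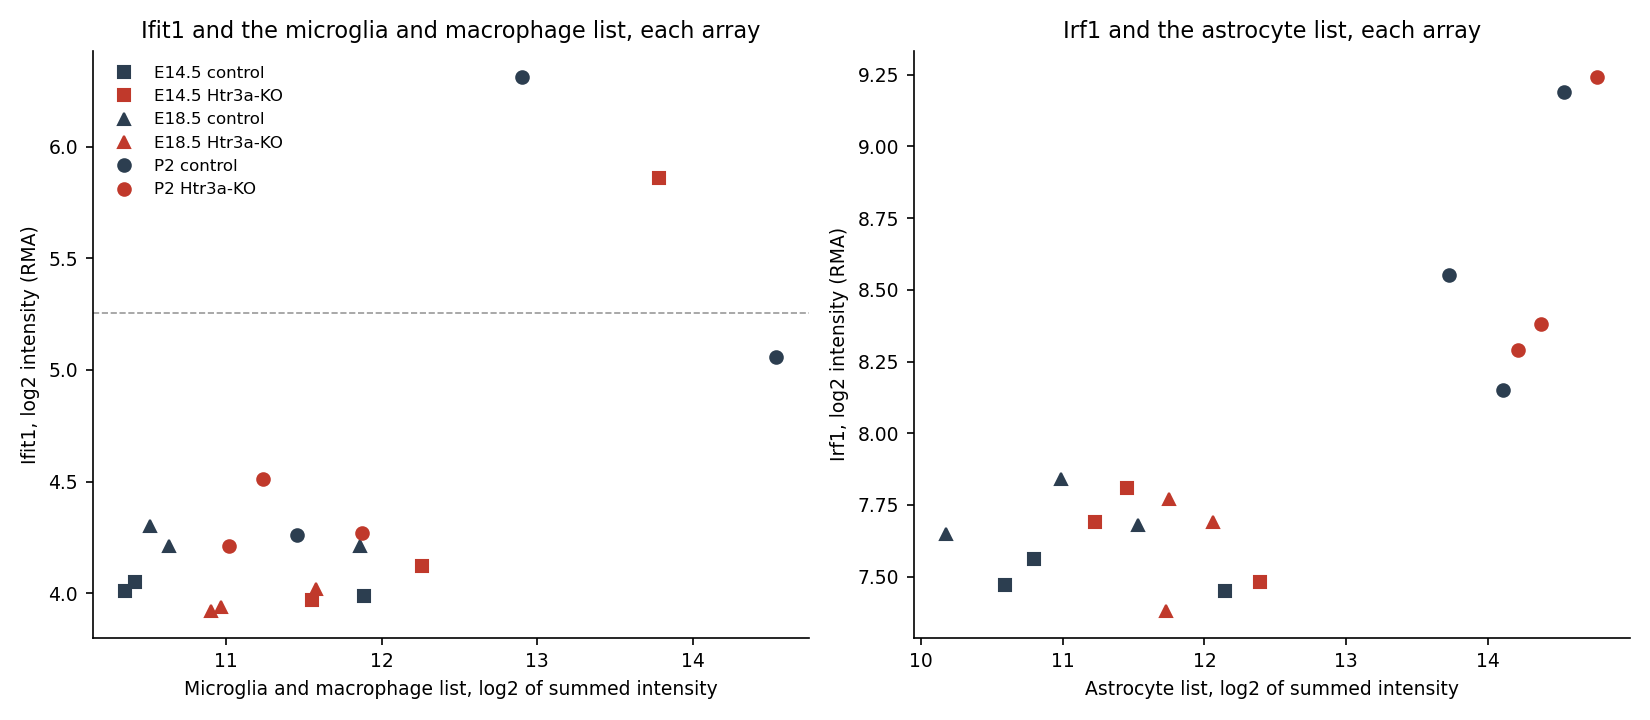
Left, log2 value of Ifit1 (vertical axis) against the log2 summed intensity of the microglia and macrophage list (horizontal axis); right, log2 value of Irf1 against that of the astrocyte list; each point is 1 of the 18 arrays, with colour for genotype and shape for age, and the dashed line is the filter at 5.255. The 3 arrays with Ifit1 above 5 are the 3 highest in the microglia list, and the 6 P2 arrays are the highest in both Irf1 and the astrocyte list. The 6 P2 arrays are also the highest in the oligodendrocyte, endothelial and meningeal lists, which are not drawn.

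By the rule for likeness, Irf1 was the tested member whose group means spanned over 1 log2 unit. The 2 genes most like it over the 18 arrays were S100a13 (Pearson r = 0.97, Spearman rho = 0.904), which encodes a small calcium-binding protein, and Chchd10 (r = 0.968, rho = 0.828), which encodes a mitochondrial protein. Arrays of a group share age and genotype, so these are descriptions with no test. S100a13 rose by 1.35 in controls (limma adjusted p = 0.000936) and by 1.47 in Htr3a-KO (adjusted p = 0.00038) from E18.5 to P2. Chchd10 rose by 1.04 (adjusted p = 0.00948) and 0.96 (adjusted p = 0.0109). The call of Chchd10 in Htr3a-KO was lost without E18.5 Htr3a-KO array 1 (adjusted p = 0.0574) and without P2 Htr3a-KO array 1 (adjusted p = 0.0635). Irgm1, an interferon-induced GTPase, had r = 0.96 and was the gene of the pathway lists nearest to Irf1.

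Irf9, the DNA-binding partner of STAT2, was the only other tested member whose E18.5 and P2 control arrays did not overlap. In controls it was 7.23, 6.72 and 7.10 at E18.5, then 7.41, 7.90 and 7.31 at P2. In Htr3a-KO it was 7.16, 7.10 and 6.94 at E18.5, then 7.77, 7.09 and 7.16 at P2. The P2 control arrays were all higher, while 2 of the P2 Htr3a-KO arrays were no higher than the highest E18.5 array. The difference was 0.52 in controls (SE 0.19, interval 0.12 to 0.93, limma adjusted p = 0.0638) and 0.27 in Htr3a-KO (adjusted p = 0.291), and neither passed. At E14.5 Irf9 was 7.36, 7.24 and 7.16 in controls and 7.28, 6.91 and 7.04 in Htr3a-KO. Groups without overlap at this step numbered 2 of 5 tested members in controls and 1 of 5 in Htr3a-KO, against 32.8% and 47.4% of all genes.

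Stat2, the STAT protein that type I interferon receptors recruit, varied within groups as much as between them. Its values at E14.5 were 6.26, 6.82 and 6.51 in controls and 6.61, 5.85 and 6.50 in Htr3a-KO. At E18.5 they were 6.69, 6.19 and 6.68 in controls and 6.69, 6.92 and 6.83 in Htr3a-KO. At P2 they were 6.07, 6.96 and 7.03 in controls and 6.50, 6.99 and 6.43 in Htr3a-KO. The 3 Htr3a-KO arrays at E18.5 were higher than the 3 at E14.5, by 0.49 on average (SE 0.26, interval -0.055 to 1.04, limma adjusted p = 0.202), which did not pass. The second Stat2 probe set, below the filter, lay between 4.93 and 5.42 on all arrays.

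Irf7, the factor that amplifies type I interferon production, was nearly level. It lay between 5.77 and 6.21 on all 18 arrays, and its largest difference between neighbouring ages or between genotypes was 0.17 in size. Bst2, or tetherin, which holds budding virus at the cell surface, lay between 5.62 and 6.42. Its Htr3a-KO values were 6.35, 6.11 and 6.04 at E14.5 and 5.78, 5.95 and 5.76 at E18.5. These groups did not overlap, and the difference of -0.34 (SE 0.16, interval -0.68 to 0.007, adjusted p = 0.165) did not pass. In P2 controls Bst2 was 6.42, 5.96 and 5.62, a spread that takes in every value at E18.5.

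From E14.5 to E18.5, limma called 0 of 5 tested members in controls and 0 of 5 in Htr3a-KO, and 0 had an unadjusted p under 0.05. Over all genes 11% were called in controls (6.06% higher, 4.93% lower) and 15.1% in Htr3a-KO (6.26% higher, 8.88% lower). Groups did not overlap for 1 of 5 members in controls (Irf1, difference 0.23, adjusted p = 0.615), against 30.9% of all genes. They did not overlap for 2 of 5 in Htr3a-KO (Stat2 and Bst2), against 37.5%. With the members below the filter the counts were 2 of 8 in controls (Ifit1 added) and 3 of 8 in Htr3a-KO (Ifit3 added).

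The 3 members below the filter encode direct products of the response. Their values are near the floor of this array, and their p-values come from a fit without the filter. Ifit1, which binds foreign RNA at its 5′ end, was 4.05, 4.01 and 3.99 in E14.5 control and 5.86, 4.12 and 3.97 in E14.5 Htr3a-KO. At E18.5 it was 4.21, 4.30 and 4.21 in controls and 3.94, 4.02 and 3.92 in Htr3a-KO. At P2 it was 5.06, 6.31 and 4.26 in controls and 4.51, 4.27 and 4.21 in Htr3a-KO. Thus 3 arrays stood above 5 (P2 control 2, E14.5 Htr3a-KO 1 and P2 control 1), and the other 15 lay between 3.92 and 4.51. High arrays occurred in both genotypes and at 2 ages, each beside an array of the same group near 4. From E18.5 to P2 the mean difference was 0.97 in controls (SE 0.44, adjusted p = 0.163), which did not pass.

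Ifit3, another member of the Ifit family, shared part of this pattern. It was 5.60 on P2 control array 2 and 5.51 on E14.5 Htr3a-KO array 1, the 2 highest values, but 5.08 on P2 control array 1. The other 15 arrays lay between 4.89 and 5.41. Usp18, the protease that removes ISG15 from proteins and damps the receptor, did not share it. Its values on those 3 arrays were 4.82, 5.03 and 4.90, within the 4.37 to 5.46 of the others. Bst2 was highest on P2 control array 1 (6.42) and E14.5 Htr3a-KO array 1 (6.35), against 5.62 to 6.18 on the other 15. It was 5.96 on P2 control array 2. Irf9 was highest on P2 control array 2 (7.90, against 6.72 to 7.77) and within that range on the other 2 arrays high in Ifit1. Stat2, Irf1 and Irf7 lay within the range of the other 15 on all 3. In Htr3a-KO Usp18 was 4.71, 4.41 and 4.47 at E18.5, then 5.12, 4.81 and 5.12 at P2. These groups did not overlap, and the difference of 0.49 (SE 0.21, adjusted p = 0.0967) did not pass. Ifit1 did not overlap at this step in Htr3a-KO either (difference 0.37, adjusted p = 0.579). With Irf1 these were 3 of 8 measured members without overlap, against 47.4% of the tested genes. Of these 3 dim members, 1 had an unadjusted p under 0.05 from E18.5 to P2 in controls (Ifit1) and 1 in Htr3a-KO (Usp18), against 28.6% and 37% of all 18193 genes in the fit without the filter.

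The 3 arrays high in Ifit1 were also the 3 highest for Rsad2, Cxcl10 and Ccl5, which are other interferon-induced genes, chosen here after their values were seen. Rsad2, which encodes viperin, was 7.80 on P2 control array 2, 8.36 on E14.5 Htr3a-KO array 1 and 7.19 on P2 control array 1, against 6.46 to 7.11 on the others. Cxcl10, a chemokine for T cells, was 8.20, 10.39 and 8.37 in the same order, against 5.50 to 7.86. Ccl5, another chemokine, was 8.08, 8.60 and 7.26, against 5.87 to 6.84. Gbp2, an induced gene below the filter that was looked at in the same way, shared this only in part. It was 5.11, 4.74 and 4.47, against 3.85 to 4.78. The same 3 arrays were the 3 highest in the microglia and macrophage list, of which 17 of 18 genes were tested. The log2 of its summed intensity was 12.90, 13.79 and 14.54, against 10.35 to 12.26 on the other 15. C1qa, a complement gene of microglia, was 9.05, 9.94 and 10.18, against 5.94 to 8.10. Cx3cr1, the fractalkine receptor of microglia, was 7.50, 9.01 and 9.58, against 5.85 to 7.50. The order differed, since Ifit1 was highest on P2 control array 2 and the microglia list on P2 control array 1. The part of microglial RNA in the Ifit1 values was not tested.

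Among the 45 measured genes of the list of other induced genes, 28 (62.2%) were higher on E14.5 Htr3a-KO array 1 than on both other arrays of its group, against 26.6% of all genes. On P2 Htr3a-KO array 1, where Ifit1 was 4.51, the count was also 28 of 45, against 43.7% of all genes. On P2 control arrays 1 and 2 it was 13 and 19 of 45 (28.9% and 42.2%), against 38.6% and 33.5%. On E14.5 control array 3, where Ifit1 was 3.99, it was 24 of 45 (53.3%), against 35.6% of all genes. Arrays with much of the list high thus had high or low Ifit1.

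Between Htr3a-KO and control, limma called 0 of 5 tested members at any of the 3 ages, and 0 for their mean. In each case 0 of 5 had an unadjusted p under 0.05, and the same held for the 3 dim members. The share called over all genes was 0.014% at E14.5, then 0.021% at E18.5, then 0.035% at P2, with 0.294% for the mean of the ages. At an unadjusted p under 0.05 these counts were 838, 1844, 1083 and 1600 of 14292 genes. Groups without overlap numbered 0 of 5 at each age, against 9.01%, 20.7% and 9.14% of all genes.

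The differences of the tested members lay between -0.21 and 0.29 on the log2 scale at single ages. Irf1 differed by 0.17 at E14.5, by -0.11 at E18.5 and by 0.007 at P2, and by 0.021 over the ages (SE 0.14, interval -0.28 to 0.32, adjusted p = 0.973). Stat2 had the largest, 0.29 at E18.5 (SE 0.26, interval -0.26 to 0.84, adjusted p = 0.664). Irf7 differed by -0.17 at E18.5 (SE 0.099, interval -0.38 to 0.041, adjusted p = 0.492). These intervals do not exclude differences of the size of their bounds. Over the ages the intervals were -0.30 to 0.33 for Stat2, -0.18 to 0.065 for Irf7, -0.34 to 0.12 for Irf9 and -0.16 to 0.23 for Bst2.

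The dim members gave wider intervals. Ifit1 differed by 0.63 at E14.5 (adjusted p = 0.96), by -0.28 at E18.5 (adjusted p = 0.805) and by -0.88 at P2 (interval -1.82 to 0.062, adjusted p = 0.675). The sign followed the arrays that stood apart, which were in Htr3a-KO at E14.5 and in controls at P2. At E18.5, where no array stood apart, the 3 Htr3a-KO arrays were lower than the 3 controls, though all 6 lay between 3.92 and 4.30. Ifit1 was the 1 of 8 measured members without overlap between genotypes at E18.5, against 20.7% of the tested genes. Usp18 differed by -0.41 at E18.5 (interval -0.85 to 0.025, adjusted p = 0.398), with 1 control array at 5.46.

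The effect of genotype did not pass a test of difference between ages for any tested member (F test, adjusted p from 0.805 for Irf7 to 0.925 for Irf1). Over all genes this test called 0%, with 1033 genes at an unadjusted p under 0.05 and 0 of the 5 members. The age step from E14.5 to E18.5 differed between genotypes for 0.007% of genes, and the step from E18.5 to P2 for 0%, with 0 members in either.

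**Figure D3:**
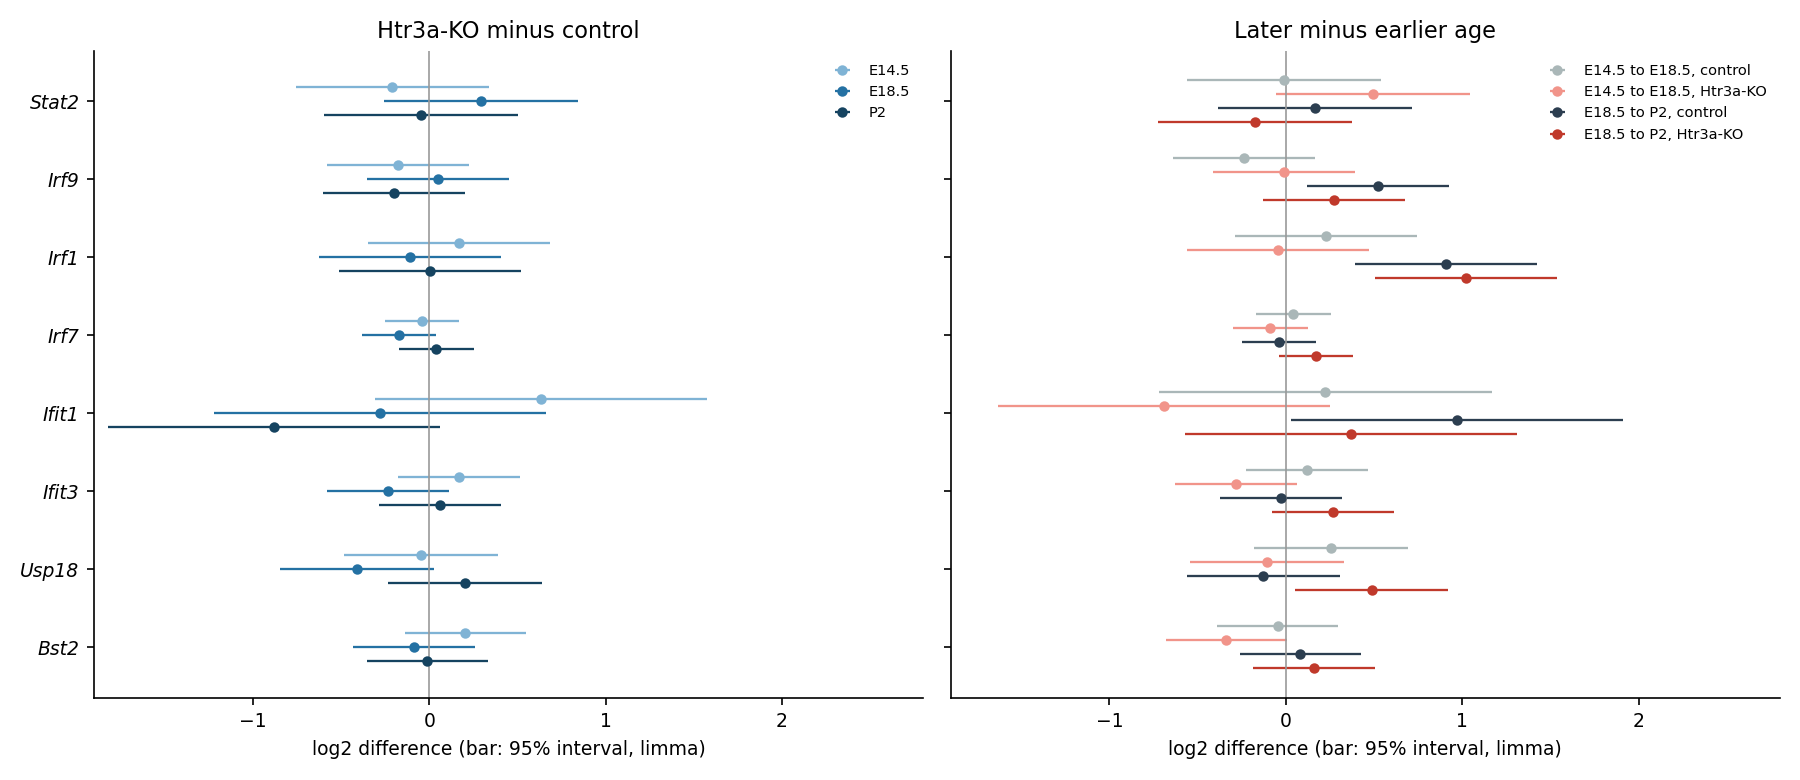
Log2 differences of the 8 measured genes (rows) with 95% intervals, Htr3a-KO minus control at 3 ages on the left and the age steps of each genotype on the right, with a line at 0. Every interval on the left crosses 0, and on the right Irf1 from E18.5 to P2 lies above 0 in both genotypes, while the intervals of Irf9 and Ifit1 in controls and of Usp18 in Htr3a-KO exclude 0 at that step with adjusted p above 0.05.

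The wider pathway was read from 7 lists of other genes: ligands, receptors, kinases and signal proteins, inhibitors, sensors and adaptors, other interferon regulatory factors, and other induced genes. Of 98 genes listed, 92 had a single-gene probe set and 78 were tested. Between Htr3a-KO and control, limma called 0 of 78 at each age and for the mean over ages. At an unadjusted p under 0.05 E14.5 had 8, E18.5 had 12, P2 had 4 and the mean had 9. The shares of all genes at that threshold were 5.86%, 12.9%, 7.58% and 11.2%. The median difference of the 78 was 0.17 at E14.5, against 0.01 for all genes, and -0.048 and -0.033 at E18.5 and P2, against -0.06 and -0.043. Markers of other cells had higher means in Htr3a-KO at E14.5 as well, and none of the 5 named here passed. C1qa differed by 1.75 (limma adjusted p = 0.805), Cx3cr1 by 1.29 (0.869), Cldn5, a tight junction gene of endothelium, by 1.36 (0.831), Kdr, an endothelial receptor, by 0.85 (0.881) and Hbb-y by 1.35 (0.902). The log2 mean of the meningeal list was 6.59 to 6.99 in controls and 7.26 to 7.58 in Htr3a-KO. That of the endothelial list was 5.99 to 6.71 against 6.70 to 7.90, and that of the microglia list 6.09 to 7.42 against 6.99 to 9.10. The part of these levels in the median was not tested. Without E14.5 control array 3, which had the lowest GABAergic marker level of its group (mean 9.02 against 10.63 and 10.79), Parp9 passed at E14.5 (0.91, adjusted p = 0.0238). It was the 1 pathway gene called there, while calls over all genes went from 2 to 135 under this omission.

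From E18.5 to P2 the pathway genes that passed were mostly higher. The lists were chosen with earlier results of these data known, which limits this reading. The filter takes the mean over all arrays, so a gene low before P2 could be tested through its P2 values. Tlr3 was such a gene, with group means of 4.74 to 5.13 before P2 and 6.04 and 6.44 at P2. In controls 19 of 78 rose (24.4%) and 0 fell, against 9.96% and 9.75% of all genes. In Htr3a-KO 24 rose (30.8%) and 1 fell, against 13.5% and 15%. The median difference was 0.28 in controls, against -0.037 for all genes, and 0.30 in Htr3a-KO, against 0. The 18 genes called in both genotypes were all higher in both, and made up 94.7% of the control calls and 72% of the Htr3a-KO calls. Without E18.5 control array 1 the control count was 12, and without E18.5 Htr3a-KO array 1 the Htr3a-KO count was 16. Calls over all genes fell as well, from 2818 to 1823 in controls and from 4070 to 2695 in Htr3a-KO.

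Socs3, an inhibitor of cytokine receptors that STAT proteins induce, had the smallest p of the pathway genes at the control step. It was 8.88, 9.20 and 8.94 at E18.5, then 11.48, 11.80 and 11.47 at P2 in controls. In Htr3a-KO it was 9.57, 9.85 and 9.96 at E18.5, then 12.10, 11.28 and 11.74 at P2. The groups were far apart, with a 5.97-fold rise in controls (2.58, SE 0.21, limma adjusted p = 2.23e-06) and a 3.77-fold rise in Htr3a-KO (1.91, SE 0.21, adjusted p = 2.25e-05). Gbp7, an interferon-induced guanylate-binding protein, was 5.40, 5.27 and 5.51 at E18.5, then 7.19, 7.97 and 7.27 at P2 in controls. In Htr3a-KO it went from 5.39, 5.62 and 5.73 to 8.21, 7.17 and 7.69. It rose 4.24-fold in controls (adjusted p = 3.43e-05) and 4.32-fold in Htr3a-KO (adjusted p = 2.72e-05). Gbp3, of the same family, rose 3.05-fold (adjusted p = 7.55e-05) and 3.76-fold (adjusted p = 1.71e-05). Socs3, Gbp7 and Gbp3 kept these calls under each alternative tried.

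By role, sensors and adaptors of foreign nucleic acid had 6 of 15 higher in controls and 7 of 15 in Htr3a-KO. Among other induced genes the counts were 9 and 12 of 37. Receptors gave 2 and 1 of 6, kinases and signal proteins 1 and 1 of 4, and the inhibitor list 1 and 2 of 8. That list also holds Uba7 and Isg20, which are not inhibitors. Ligands gave 0 and 1 of 2 higher, and other interferon regulatory factors 0 and 0 of 6. The gene that fell in Htr3a-KO was Irf2bp1, a co-repressor named for its binding of IRF2 (-0.32, adjusted p = 0.0271). Its call was lost without E18.5 Htr3a-KO array 1 or 3 and without P2 Htr3a-KO array 1 or 3 (adjusted p up to 0.0921), and after a second quantile normalization (-0.21, adjusted p = 0.155). The astrocyte, oligodendrocyte, endothelial and meningeal marker levels given beside Irf1 moved at this step too, and their part in the pathway counts was not tested. Of the astrocyte list 6 and 6 of 7 rose in controls and Htr3a-KO, and of the oligodendrocyte list 6 and 4 of 7. Of the microglia list 3 of 17 rose in controls and 0 of 17 in Htr3a-KO. Of the endothelial list 3 and 1 of 13 rose, and of the meningeal list 2 and 2 of 7. Over all genes 9.96% rose in controls and 13.5% in Htr3a-KO.

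**Figure D4:**
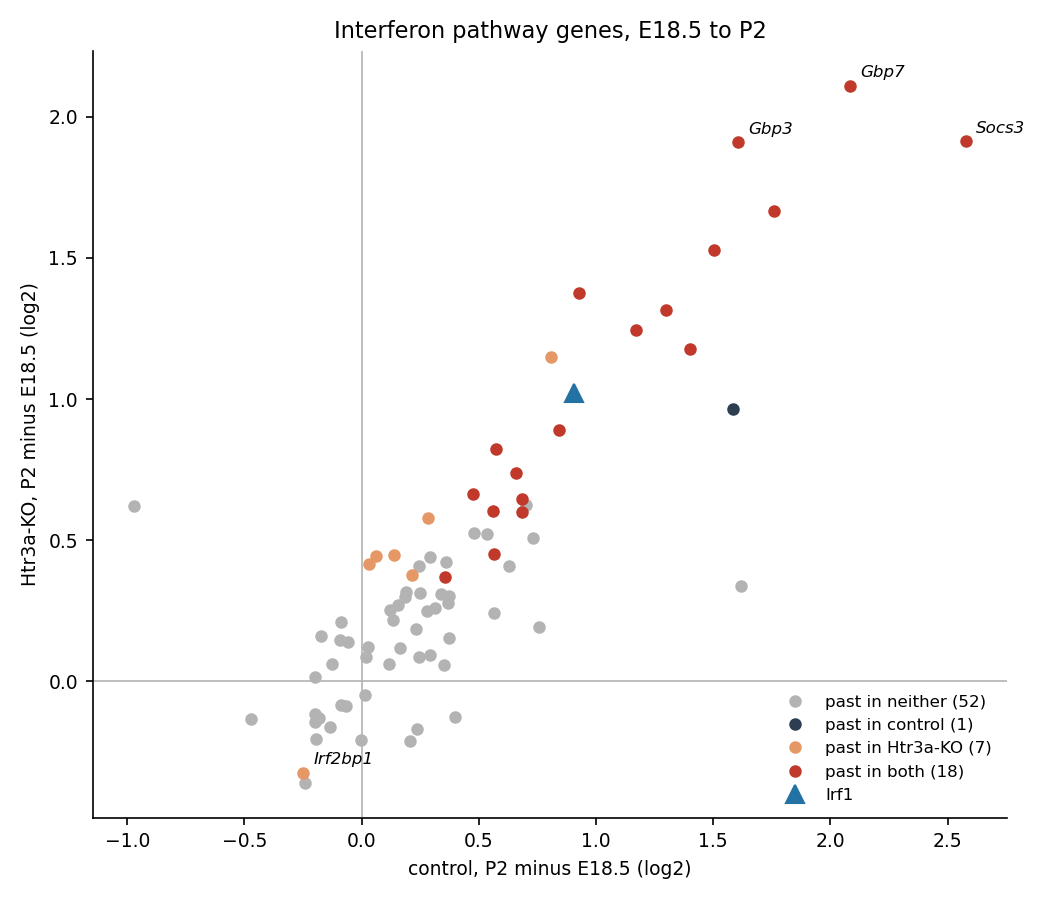
Log2 difference from E18.5 to P2 in Htr3a-KO (vertical axis) against that in controls (horizontal axis) for the 78 tested pathway genes (points, coloured by the genotype in which they passed), with Irf1 as a triangle. Of these, 18 passed in both genotypes, 1 in controls alone, 7 in Htr3a-KO alone and 52 in neither.

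From E14.5 to E18.5 fewer pathway genes passed. In controls 3 of 78 rose (3.85%) and 0 fell, against 6.06% and 4.93% of all genes, so the count was not above the background. Jak2 and Jak1, the receptor-bound kinases, differed by 0.32 (adjusted p = 0.0228) and 0.56 (adjusted p = 0.0344), and Ifit2, of the Ifit family, by 0.78 (adjusted p = 0.0455). None of these 3 calls held through all single-array omissions. Leaving out E14.5 control array 1 ended all 3 (adjusted p of 0.0734 for Jak2, 0.148 for Jak1 and 0.151 for Ifit2). That omission also took the calls over all genes from 1571 to 916. E14.5 control arrays 2 and 3 and E18.5 control arrays 1, 2 and 3 each ended 1 or 2 of them. For Jak1 the mean of its probe sets gave -0.014 (adjusted p = 0.978).

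In Htr3a-KO 3 of 78 rose (3.85%) and 4 fell (5.13%) at this step, against 6.26% and 8.88% of all genes, so neither count was above the background. Ifit2 was 8.17, 7.91 and 7.38 at E14.5 and 8.90, 8.47 and 9.31 at E18.5. All E18.5 arrays were higher, and the 2.10-fold rise (1.07, adjusted p = 0.00843) held under each alternative tried. Jak2 rose by 0.33 (adjusted p = 0.0157) and Socs3 by 0.73 (adjusted p = 0.0299). Each of these lost its call on single omissions, Jak2 without E14.5 Htr3a-KO array 3 or E18.5 Htr3a-KO array 1 or 2, and Socs3 without array 2 or 3 of either group. Ifngr2, a chain of the interferon gamma receptor, fell by 1.52 (adjusted p = 0.014), Ifnb1, interferon beta, fell by 0.65 (adjusted p = 0.0245), and Ifih1, the RNA sensor MDA5, fell by 0.72 (adjusted p = 0.0348). All 3 falls were lost without E14.5 Htr3a-KO array 1, the array high in Ifit1, with differences of -1.41 for Ifngr2 (adjusted p = 0.0518), -0.41 for Ifnb1 (adjusted p = 0.0995) and -0.45 for Ifih1 (adjusted p = 0.143). Ifngr2 was also lost without E18.5 Htr3a-KO array 2, Ifnb1 without array 1 or 2 of that group, and Ifih1 without array 1 or 3 of that group or E14.5 Htr3a-KO array 2. Without E14.5 Htr3a-KO array 1, 3 pathway genes passed in place of 7. Without E18.5 Htr3a-KO array 1 the count was also 3, and without E18.5 Htr3a-KO array 2 it was 2. Calls over all genes fell as well, from 2163 to 1252, 1032 and 928 under these omissions, in the same order.

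Markers of other cells moved from E14.5 to E18.5 too. Of the oligodendrocyte list 6 of 7 rose in each genotype, and of the excitatory list 5 of 10 fell in each. Of the astrocyte list 1 of 7 rose in controls and 2 of 7 in Htr3a-KO, and of the endothelial list 1 of 13 rose in each. Of the erythroid list 1 of 5 fell in controls and 2 of 5 in Htr3a-KO. Over all genes 6.06% rose and 4.93% fell in controls, and 6.26% rose and 8.88% fell in Htr3a-KO. The endothelial count of 1 of 13 is thus near the background share. Hbb-y, an embryonic globin gene of red blood cells, fell by 3.96 in controls (limma adjusted p = 0.0032) and by 5.54 in Htr3a-KO (adjusted p = 0.000315). The part of these shifts in the pathway values was not tested.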

How the data were processed

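RNA of sorted GFP-positive cells was hybridised to the Affymetrix Mouse Genome 430 2.0 array (18 arrays, 3 in each of 6 groups of age and genotype, per the labels). The deposited values are log2 intensities that the authors made by robust multi-array averaging (RMA) in Partek Genomic Suite 6.6, per the series' design text and the submitters' processing notes. RMA draws all arrays to 1 distribution, so a change shared by most genes would not show. Of 45101 probe sets, 64 were controls, 34945 named 1 gene, 932 several and 9160 none. Arrays carry no counts, and their number limits the precision.

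Differences were fitted here with limma 3.58.1 (R 4.3.3), from group means and a spread shared by all arrays (12 residual degrees of freedom), moderated p-values and Benjamini-Hochberg adjustment over all 14292 genes. A gene was called at an adjusted p under 0.05. The fit was tested on simulated data. Alternatives covered the filter, the choice of probe set, normalization, variance, the samples in the fit, a replicate block and leaving out each array. Leaving out 2 arrays high in microglia markers was chosen after seeing the data.

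The members, pathway lists and marker lists were chosen with earlier results of these data known. Named beside the members were up to 3 pathway genes per direction and comparison with the smallest p, defining cell type markers, Htr3a, and the 2 genes most like a tested member whose group means spanned over 1 log2 unit. Irgm1, Parp9, Uba7, Isg20, Rsad2, Cxcl10, Ccl5, Gbp2, Tlr3, Zfp36, Egr1 and Fos were named after their values were seen. The main fit did not pair arrays by replicate number, and the labels do not say what arrays of the same number share. Of 45 pairs with the same number, 12 had deviations correlated over 0.1 (range -0.542 to 0.376). Without the rate for pairs of different numbers, this count does not settle whether the numbers pair the arrays.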

Additional observations from a re-analysis of the deposited data

How the results depend on the processing

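Over 367 alternative values of the 5 tested members between genotypes, 0 passed, and the lowest adjusted p was 0.385 (limma). Irf1 from E18.5 to P2 ranged from 0.63 to 1.15 in controls (adjusted p from 0.00635 to 0.0842) and from 0.72 to 1.20 in Htr3a-KO. Irf7 and Bst2 had no value when the lowest 50% of probe sets were left out. The members called from E18.5 to P2 in controls were 0 with only the groups compared, and 0 to 1 without 1 array. In Htr3a-KO the count was 1 without any 1 array, and in the other comparisons 0 to 0.

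Pathway genes called from E18.5 to P2 were 10 in controls and 13 in Htr3a-KO with the lowest 50% left out, where fewer genes were tested. From E14.5 to E18.5 they were 0 in controls with only the groups compared. In Htr3a-KO they were 12 with every probe set and 3 without the 2 arrays highest in microglia markers. Without 1 array, the counts were 0 to 3 and 12 to 19 for the age steps in controls, 2 to 7 and 16 to 25 in Htr3a-KO, 0 to 1 between genotypes at E14.5, and 0 elsewhere. Jak1 from E14.5 to E18.5 in controls turned to -0.014 with the mean of its probe sets (adjusted p = 0.978).

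Over all genes, counts between genotypes moved with the settings and the cause was not tested. At E14.5 (2 genes) they were 1 with the mean of probe sets, 5 with every probe set, and 0 both with only the groups compared and without the 2 arrays. At E18.5 (3 genes) they were 5 without a filter, 14 with the mean of probe sets, 19 with every probe set, 8 with a replicate block and 5 without the 2 arrays. At P2 (5 genes) they were 9 with every probe set, 3 after quantile normalization, 3 with trended and robust variance, 0 with only the groups compared, 8 with the replicate block and 2 without the 2 arrays. The mean over ages (42) gave 12 without the 2 arrays. The E18.5 to P2 step in controls (2818) gave 1665 with only the groups compared, and the E14.5 to E18.5 step in Htr3a-KO (2163) gave 1268 without the 2 arrays. The difference of the earlier step between genotypes (1) gave 0 with the replicate block and 0 without the 2 arrays. The block changed no member's call. It ended the call of Ifit2 in controls from E14.5 to E18.5 (adjusted p = 0.0683), and 6 of 18 arrays correlated best with their own number.

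Without 1 array, genes called numbered 0 to 135 at E14.5, 2 to 20 at E18.5, 0 to 21 at P2 and 17 to 128 for the mean over ages. The age steps gave 916 to 1417 and 1823 to 2901 in controls, and 928 to 1982 and 2517 to 3718 in Htr3a-KO. The tests of difference gave 0 to 16 for the earlier step, 0 to 0 for the later and 0 to 13 for the F test.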
